A study of Mus musculus with 2 samples.

Results

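The clustered protocadherin genes are 3 families of cell-surface adhesion genes, alpha, beta and gamma, that stand in a row on mouse chromosome 18. They were taken as the protein-coding genes of the GENCODE M21 annotation whose symbol starts with Pcdha, Pcdhb or Pcdhg. This gave 57 of 21755 protein-coding genes of the autosomes and the X chromosome, with 14 in the alpha cluster, 22 in the beta cluster and 21 in the gamma cluster. All lie on the plus strand between chr18:36930184-37841873 of mm10, a span of 911.69 kb. The annotation gives the symbol Pcdha11 to 2 of the alpha genes, and RefSeq on the same assembly calls the upstream one, which starts at 37005203, Pcdha10. Pcdhgb8 is annotated as a polymorphic pseudogene and is not counted.

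The study measured DNase I hypersensitivity, the ease with which an enzyme cuts DNA in nuclei, in whole ovary. The animals were adult female B6CASTF1/J mice, the F1 hybrid of C57BL/6 and CAST, aged 18 to 20 months, with no treatment named. They form 1 group of 2 libraries, called replicate 1 and replicate 2, made from separate biosamples under 1 donor entry; the labels do not say whether these are different animals. There is thus no contrast between conditions, and the spread given below is that of these 2 libraries alone.

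In the alpha and gamma clusters each gene has its own promoter and long first exon, which is spliced to a few constant exons shared by the whole cluster. The beta genes have no constant exons. In neurons a cell uses a small choice of these promoters, which gives it a surface identity, while the C-type genes at the end of the alpha and gamma clusters (Pcdhac1, Pcdhac2, Pcdhgc3, Pcdhgc4 and Pcdhgc5) are used more uniformly. CTCF and cohesin bind at many of the promoters and at enhancers downstream of the first exons, and a short conserved box containing CGCT marks most promoters.

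Peaks and their strength are those of the longer of the peak lists deposited for each library, with 95898 peaks in replicate 1 and 83982 in replicate 2. Signal is the peak height as the authors scaled it, which came in whole steps (0.0108 in the first library, 0.00782 in the second). The number of reads behind each library was unknown. A given signal is more steps in the second library: Pcdhgc3 had 666 steps in replicate 1 and 970 in replicate 2. Whether the lower number of peaks in replicate 2 has to do with the number of reads was not tested. Among markers fixed for the tissue, promoter peaks were shared by the replicates at 6 of 8 granulosa genes (75%) and 5 of 8 stromal genes (62.5%). Over all protein-coding genes the share was 57.4%, and the stromal share was near it. By signal, Inha was the strongest of the granulosa list and Wt1 of the stromal list. Fshr and Nr2f2 had a peak in replicate 2 only, and Lum had none. Nr5a2 and Pdgfra had none at the start used but were open in both replicates at another annotated start. Of 12 neuronal genes 5 had a shared peak (Tubb3, Syp, Syt1, Nefm and Snap25). That count was 8 when any annotated start was accepted, with Map2, Gap43 and Elavl4 added, and 1 with the strongest 20000 peaks of each replicate. With the same settings, in that order, the granulosa counts were 7 and 4 and the stromal counts 6 and 2. The share of all protein-coding genes was 62.3% and 42.2%. The samples are bulk tissue, so a weak peak from all cells and a strong peak from few cells cannot be told apart.

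Most clustered protocadherin promoters had no peak. A promoter was counted as open when a peak lay within 500 bp of the start of the transcript with the longest coding sequence. By that rule 4 of 57 members (7.02%) were open in both replicates, 12 (21.1%) in replicate 1 only, 0 in replicate 2 only, and 41 in neither. Over all protein-coding genes 57.4% were open in both replicates, 2.28% in replicate 1 only and 1.85% in replicate 2 only. The members thus lay far below the background in shared peaks and above it in peaks of replicate 1 only.

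CpG content differed between the clusters. The ratio of observed to expected CpG over the 1 kb around the start had a median of 0.564 in the members, with a range of 0.158 to 0.864, against 0.571 for all genes. The median was 0.686 in the alpha, 0.378 in the beta and 0.594 in the gamma cluster. The members had a median GC content of 44.9% and all genes 55.2%. Among the other genes whose ratio lay within the members' quartiles, 0.396 to 0.683, 74.1% were open in both replicates. First exons of the members were long, 2346 to 8695 bp with a median of 2611, where the median of all genes was 210. When a peak anywhere from 500 bp before the start to the end of the first exon was accepted, the members stayed at 4, while among the 504 genes with a first exon of 2 kb or more 52.6% had such a peak in both replicates.

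**Figure D1:**
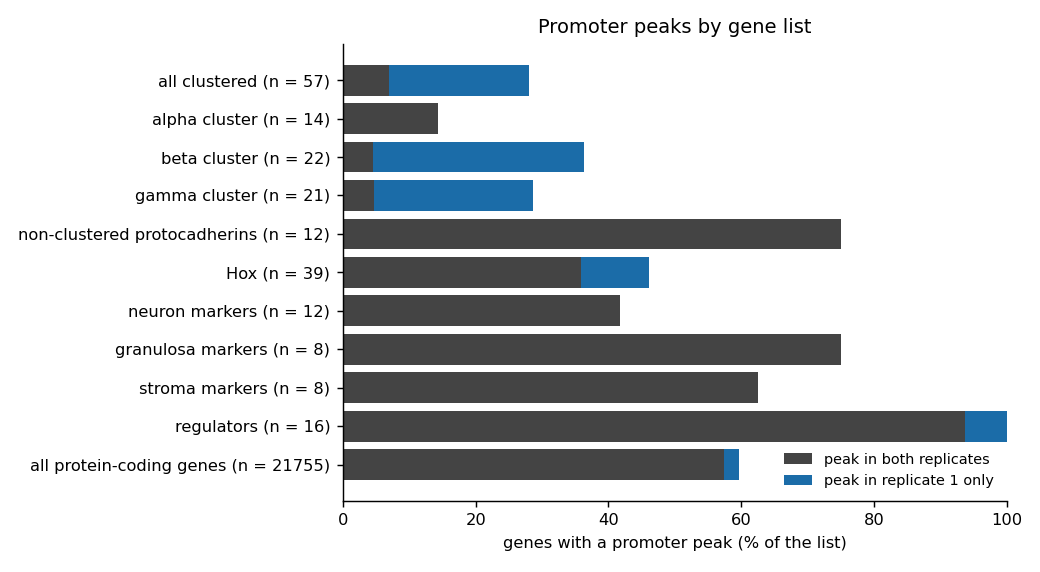
Percent of genes with a promoter peak in each list, in both replicates (dark) or in replicate 1 only (blue), with the number of genes n. The 57 clustered members reach 7.02% in both replicates, all protein-coding genes 57.4%.

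The C-type genes held 3 of the 4 promoters open in both replicates. Pcdhgc3, the first C-type gene of the gamma cluster, had a signal of 7.17 in replicate 1 and 7.58 in replicate 2. Its mean was 7.38 ± 0.291 (SD, n = 2). Pcdhgc3 was stronger than 78.1% of all genes open in both replicates in replicate 1 and than 73.7% in replicate 2. It was the only member above the median signal of the genes open in both, 3.94 in replicate 1 and 4.03 in replicate 2. The lowest false discovery rate of the cut rate listed within 500 bp of the Pcdhgc3 start was 9.17e-24 in replicate 1 and 2.31e-28 in replicate 2.

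The other shared promoters were weak. Pcdhac1, a C-type alpha gene, had a signal of 0.581 in replicate 1 and 0.610 in replicate 2 (mean 0.595 ± 0.0200, SD, n = 2). Pcdhac2, the last C-type alpha gene, had 0.409 and 0.344 (mean 0.376 ± 0.0461). Pcdhb1, the first beta gene, had 0.269 and 0.274 (mean 0.271 ± 0.00314). All were near the bottom of the open genes: in replicate 1 Pcdhac1 was stronger than 3.79% of them, Pcdhac2 than 1.15% and Pcdhb1 than 0.104%, and in replicate 2 than 4.75%, 0.553% and 0.0721%. The order Pcdhgc3, Pcdhac1, Pcdhac2, Pcdhb1 was the same in each replicate, with no overlap of the values of neighbours. The remaining C-type genes, Pcdhgc4 and Pcdhgc5, which lie 8.67 and 13.1 kb after Pcdhgc3, had no peak and no base below a false discovery rate of 0.05 in either replicate.

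**Figure D2:**
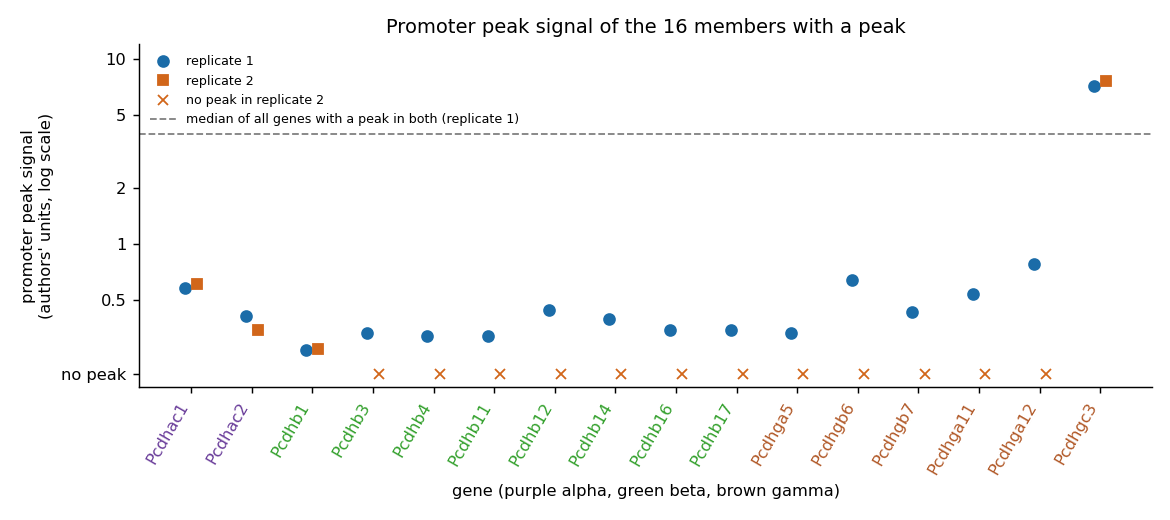
Signal of the strongest promoter peak (authors' units, log scale) for the 16 members with a peak, in genome order; circles are replicate 1, squares replicate 2, crosses mark no peak in replicate 2, and the dashed line is the median of all genes open in both replicates, in replicate 1. Pcdhgc3 alone lies above the line, and 12 members have a cross.

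Among the remaining alpha genes the result was uniform. All 12 from Pcdha1 to Pcdha12, whose first exons carry the variable part of the alpha proteins, had no promoter peak, no footprint and no base below a false discovery rate of 0.05 in either replicate. They lay inside a stretch of 286.7 kb without a peak in either library, chr18:36803141-37089860, which ran from before the upstream flank to the promoter of Pcdhac1 and was longer than 99.2% of all gaps between peaks. Their sequence recurs elsewhere: 71.0% to 90.1% of the 31-base words around their starts occurred once in the genome, against a median of 98.1% over all members. Single genes of the other clusters were as low, the lowest being Pcdhgb4 at 70.5%, which also had no peak. How much reads that fit several places lowered the signal there was not tested. The CpG ratio of these 12 starts had a median of 0.693, above that of all genes.

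In the beta cluster, 1 of 22 genes was open in both replicates, 7 in replicate 1 only and 14 in neither. The 7 were Pcdhb3 with a signal of 0.334, Pcdhb4 with 0.323, Pcdhb11 with 0.323, Pcdhb12 with 0.441, Pcdhb14 with 0.398, Pcdhb16 with 0.344 and Pcdhb17 with 0.344. Replicate 2 had no peak from the first exon of Pcdhb1 to the promoter of Taf7, chr18:37265121-37644160. This stretch of 379.0 kb held the starts of 21 beta genes and was longer than 99.1% of the gaps in that replicate. Of the words of 31 bases in it 72.9% occurred once in the genome, and around the beta starts themselves the median was 100%.

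In the gamma cluster, 1 of 21 genes was open in both replicates, 5 in replicate 1 only and 15 in neither. The 5 were Pcdhga5 with a signal of 0.334, Pcdhgb6 with 0.646, Pcdhgb7 with 0.431, Pcdhga11 with 0.538 and Pcdhga12 with 0.786. All but Pcdhga5 lay close together at the end of the variable genes, from Pcdhgb6 to Pcdhga12, where Pcdhga10 was the only member without a peak. The pseudogene Pcdhgb8, which lies between Pcdhga11 and Pcdhga12, had peaks of 1.29 and 0.517 in replicate 1 and none in replicate 2. Replicate 2 had no peak for 161.9 kb, from Taf7 to Pcdhgc3, over 18 gamma starts, where 92.2% of the 31-base words occurred once in the genome.

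The 12 promoters seen in replicate 1 alone were weak, with signals of 0.323 to 0.786 and a median of 0.371, or 30 to 73 steps. The median of all promoters open in replicate 1 only was 0.517. At such signals many genes are missed by the other library: of all genes whose replicate 1 promoter signal lay within this range, 70.5% also had a promoter peak in replicate 2, and of the 14 members in it 2 did (Pcdhac1 and Pcdhac2). The range was set after the values were seen. It was set by the members that replicate 2 lacked, so the 2 of 14 is a description only. The 70.5% pools genes of unlike signal and was not matched to the 12 promoters, whose median of 0.371 lay near the low end. By signal, replicate 2 showed 55 of 110 genes and 0 of 6 members from 0.3 to 0.35. At 0.35 to 0.4 these were 60 of 121 and 0 of 1, and at 0.4 to 0.5 177 of 272 and 1 of 3. They were 193 of 267 and 1 of 2 at 0.5 to 0.6, and 474 of 583 and 0 of 2 at 0.6 to 0.8. None of the 12 had a base below a false discovery rate of 0.05 in replicate 2, while in replicate 1 their lowest rates were 3.04e-05 to 0.0361.

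**Figure D3:**
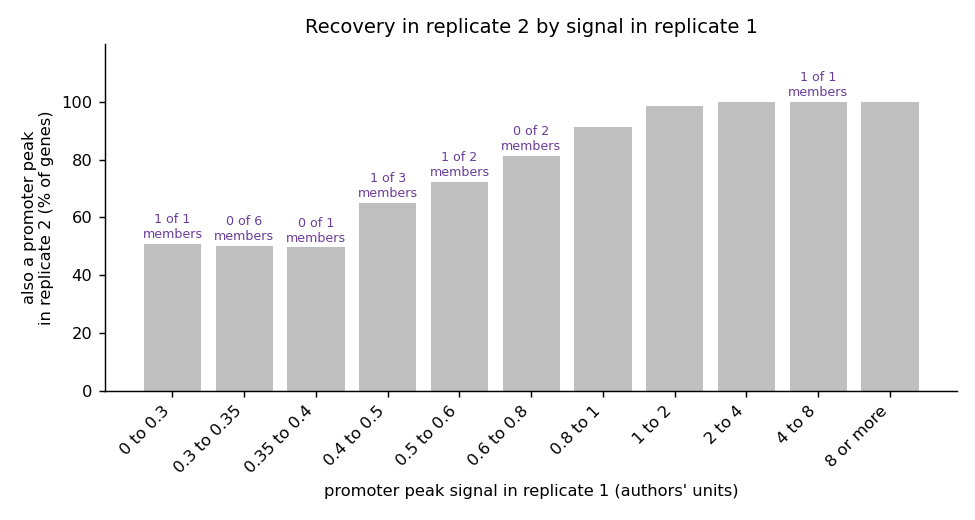
Percent of all protein-coding genes with a replicate 1 promoter peak that also have one in replicate 2 (bars), by replicate 1 signal in the authors' units; labels give the members in each class that replicate 2 also shows. From 0.3 to 0.35, 55 of 110 genes and 0 of 6 members were seen in replicate 2.

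By count, such genes were also most frequent at the clusters. Within a window as long as the clusters (911.69 kb), 13 genes were open in replicate 1 only, the 12 members and Arap3. In windows that did not meet the clusters the largest number was 5. These are counts and not shares of the genes in a window: a window on chromosome 19 held 4 such genes among 6. The number of genes in the window at the clusters is not given here, so no share stands beside its 13. The window length was set by the span of the members. Members made up 2.41% of the 497 genes open in replicate 1 only and 0.262% of all genes. Replicate 1 also had more peaks in all. When only its strongest peaks were kept, as many as replicate 2 has, the members open in replicate 1 only fell from 12 to 6, with Pcdhb12, Pcdhb14, Pcdhgb6, Pcdhgb7, Pcdhga11 and Pcdhga12 left. All genes then had 1.71% in that class. What made the libraries differ here was not tested.

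Sequence around the starts was searched on both strands for the exact word GGCGCT, which contains the CGCT of the conserved box. GGCGCT occurred within 500 bp of the start in 35 of 57 members (61.4%) and in 42.5% of all protein-coding genes. The beta genes carried it most, 20 of 22, followed by 12 of 21 gamma genes and 3 of 14 alpha genes. In 18 of 22 beta genes it stood in the direction of the gene within 200 bp upstream of the start, at -195.5 to -25.5 bp with a median of -53.5. Over all genes 7.45% had such a match. A single alpha gene, Pcdhac1, and a single gamma gene, Pcdhgc3, had one. Other words with CGCT were not searched, so the absence of a match says only that GGCGCT is not in the window. Whether such genes carry another form of the conserved box was not tested. From here on, the box means GGCGCT only.

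All 7 beta promoters open in replicate 1 only held the box inside the replicate 1 peak, in Pcdhb17 downstream of the start and in the others upstream. Of the 5 such gamma promoters 1 did, Pcdhga12. Of the members with no peak, 20 of 41 had a match within 500 bp, 13 of them among the 14 closed beta genes, and 7 of the 8 beta genes open in at least replicate 1 had one. Pcdhb1, the beta gene open in both replicates, had none. The centres of the 12 replicate 1 peaks lay from -85.5 to 330.5 bp from the start with a median of -39, and 10 of 12 lay upstream. Over all genes the median was -39.5 bp, with 70.3% upstream.

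**Figure D4:**
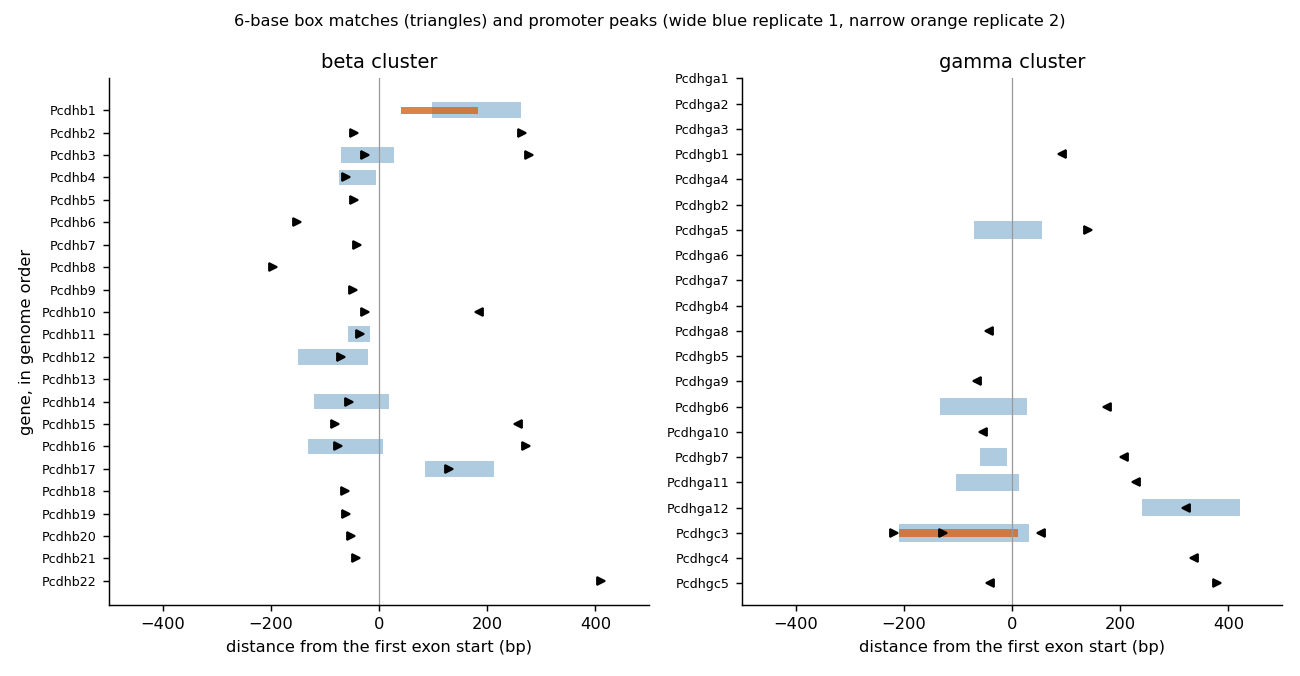
Matches of the 6-base box within 500 bp of the first exon start (triangles pointing right in the direction of the gene, left against it) for each beta and gamma member in genome order, with the strongest promoter peak of replicate 1 (wide blue) and replicate 2 (narrow orange). In 18 of 22 beta genes a right-pointing triangle lies within 200 bp upstream of the start, in genes with and without a peak.

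The core of the CTCF motif, written as CA, any pair of bases, AG, any pair of bases, GGC and searched on both strands, was found within 500 bp of 7 of 57 starts (12.3%), and of 19.2% of all protein-coding starts. The genes were Pcdha1, Pcdha8, Pcdha9, Pcdhac2, Pcdhb16, Pcdhga1 and Pcdhga8. The match at Pcdhb16 lay in its replicate 1 peak, and no match within 500 bp of a member's start lay in a footprint. The core is short and strict, so its absence says only that these letters are not in the window.

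Footprints are short stretches within open DNA that are cut less than their surroundings. There were 13 within 500 bp of member starts in replicate 1, at 8 genes, and 10 in replicate 2, at Pcdhac1, Pcdhac2 and Pcdhgc3. Pcdhgc3 had 5 in each replicate, the median of all genes open in both. Of its footprints 2 overlapped between replicates: 1 was centred at -185.5 bp from the start in replicate 1 and -183 bp in replicate 2 and was 26 and 29 bp wide. The other was centred at -24.5 and -29 bp and was 8 and 17 bp wide. No other member had a footprint that recurred in the other replicate. Besides Pcdhgc3, only Pcdhac1 and Pcdhac2 had footprints in both replicates. The share of footprints that recur over all genes or regions is not given, so such counts here and below have no background.

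Shared peaks were sparse over the first exons and denser around the constant exons. After merging overlapping peaks, the span without flanks had 13 regions seen in both replicates, 20 in replicate 1 only and 1 in replicate 2 only, or 1.43 shared regions per 100 kb against 2.38 over the genome. The share of regions seen in replicate 1 only was 26.4% over the genome. By stretch, the shared regions numbered 0 from Pcdha1 to Pcdha12, 2 from there to the end of the Pcdhac2 first exon, 2 among the alpha constant exons (4.86 per 100 kb) and 1 between the alpha and beta clusters. There was 1 in the 259.5 kb of the beta cluster, 1 between the beta and gamma clusters, 0 from Pcdhga1 to Pcdhga12 and 1 from there to the end of the Pcdhgc5 first exon. The 19.7 kb from the end of the Pcdhgc5 first exon to the end of the gamma constant exons held 5, or 25.3 per 100 kb. The share of 31-base words that occur once in the genome differed too. It was 97.0% and 96.2% among the alpha and gamma constant exons and 82.2% from Pcdha1 to Pcdha12. From there to the Pcdhac2 first exon it was 66.4%, in the beta cluster 79.0% and from Pcdhga1 to Pcdhga12 92.2%. How much this shaped the counts was not tested.

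**Figure D5:**
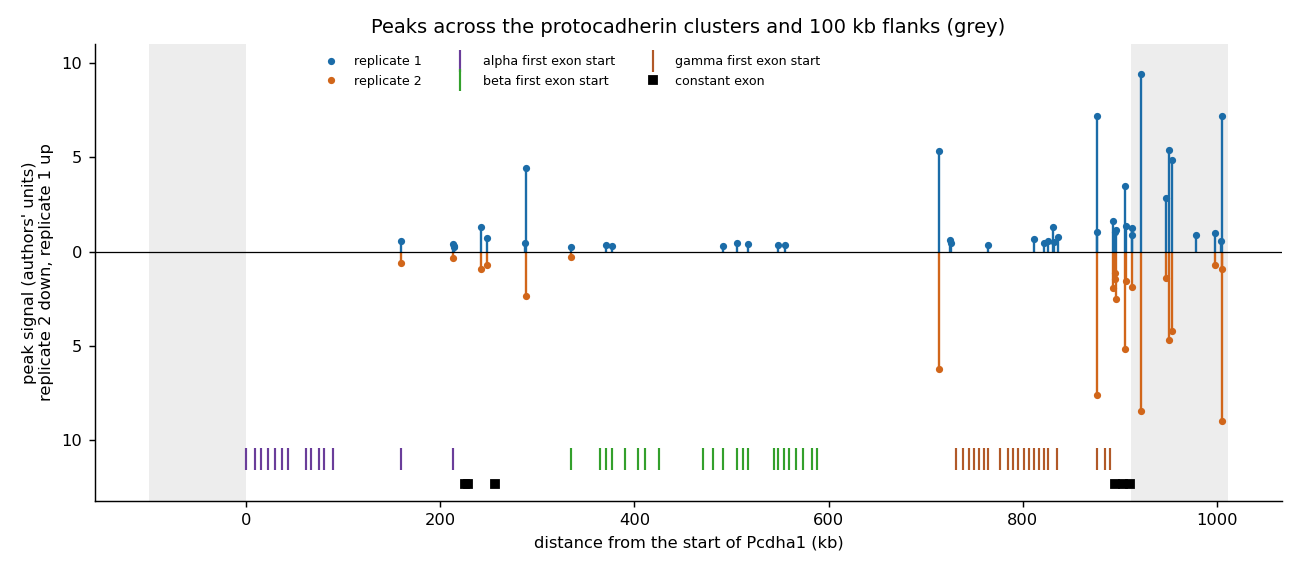
Peaks of replicate 1 (up) and replicate 2 (down) against distance from the Pcdha1 start in kb, with height the authors' signal; coloured ticks mark first exon starts, black squares constant exons, grey the flanks of 100 kb. The 12 starts from Pcdha1 to Pcdha12 lie in a stretch with no peak, and the tallest peaks stand at Taf7, Pcdhgc3 and beyond.

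Of the 6 constant exons, which encode the shared cytoplasmic ends, 5 had no peak in either replicate. Constant exon 1 of the gamma cluster, chr18:37825021-37825079, lay under a peak of 1.14 in replicate 2 only. Shared regions stood in the introns beside them. Between alpha constant exons 2 and 3 there were 2: chr18:37172301-37172560 (signal 1.28 and 0.922), 133.5 bp from an annotated start of Gm38097, and chr18:37178401-37179052 (0.721 and 0.696), 204.5 bp from a start of Gm10544. Among the gamma constant exons the strongest was chr18:37835361-37835840, between exons 2 and 3, with 3.47 and 5.17. It had 8 footprints in each replicate, of which 6 of replicate 1 overlapped one of replicate 2.

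The strongest region between the alpha and beta clusters was chr18:37218281-37218460, with a signal of 4.41 in replicate 1 and 2.36 in replicate 2. Its centre lay 30.7 kb after the last alpha constant exon and 46.6 kb before Pcdhb1. It was stronger than 89.4% and 79.2% of all shared regions. It had 5 and 3 footprints, 3 of the 5 recurring, and a CTCF core within a footprint of each replicate. A weaker peak of replicate 1, chr18:37217361-37217540 with 0.441, stood just before it and also held a CTCF core. Enhancers known as HS5-1, downstream of the alpha constant exons, and HS7, among them, are known regulators of the alpha cluster. Their published positions were not used here, so whether these regions are those elements was not tested.

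After the gamma cluster the downstream flank held 7 shared regions, 7.00 per 100 kb, while the upstream flank of the same length held no peak. The flanks also differed in sequence: 96.6% of the 31-base words of the downstream flank occurred once in the genome, and 66.0% of those of the upstream flank. How much this shaped the counts was not tested. The strongest, chr18:37852161-37852400, lay 10.4 kb after the last gamma constant exon within Diaph1, with 9.41 in replicate 1 and 8.43 in replicate 2, and was stronger than 98.0% and 95.4% of all shared regions. All 5 of its replicate 1 footprints recurred, and a CTCF core lay in a footprint of each replicate. The same held for chr18:37883561-37883760 (4.84 and 4.18). In the span and flanks 6 of 20 shared regions held a CTCF core (30.0%), 3 of them within footprints of both replicates, and 15.5% of all shared regions of the genome held one.

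Of the 7 other protein-coding genes of the locus and its flanks, 3 (42.9%) were open in both replicates, against 57.4% of all protein-coding genes. Taf7, a subunit of the general transcription factor TFIID that lies between the beta and gamma clusters, had 5.32 and 6.23 (mean 5.77 ± 0.644, SD, n = 2). Diaph1, a formin that drives actin assembly, had 7.17 and 8.98, and Hdac3, a histone deacetylase, had 6.24 and 6.39. Slc25a2, a mitochondrial carrier gene beside Taf7, and the predicted genes Gm42416, Gm37013 and Gm37388, which start within the alpha cluster, had no peak.

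The non-clustered protocadherins, which are single genes of the same superfamily spread over the genome, had a promoter peak in both replicates in 9 of 12 cases (75%). The share was 57.4% over all protein-coding genes. It was 74.1% among the other genes whose CpG ratio lay within the quartiles of the clustered members, so 75% is not particular to this family. The strongest were Pcdh10 with a mean of 4.99 ± 0.985 (SD, n = 2), Pcdh17 with 4.46 ± 0.162 and Pcdh9 with 3.87 ± 0.381. Pcdh8 (3.41 ± 0.112), Pcdh18 (3.22 ± 0.403), Pcdh19 (2.14 ± 0.372) and Pcdh7 (1.22 ± 0.331) followed. The weakest, Pcdh20 at 0.667 ± 0.0921 and Pcdh11x at 0.518 ± 0.0630, were at the level of Pcdhac1. Pcdh15 had a peak in replicate 2 only, of 0.344, and Pcdh1 and Pcdh12 had none at the start used, though another annotated start of Pcdh12 had 0.614 and 0.571. Of 39 Hox genes, another family in clusters, 14 (35.9%) were open in both replicates, 4 in replicate 1 only and 1 in replicate 2 only.

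Of 16 genes for published regulators of the clusters, 15 (93.8%) were open in both replicates at the start used, against 57.4% of all protein-coding genes. Their promoters were rich in CpG, with a median ratio of 0.907 against 0.571 for all genes. Wiz was open there in replicate 1 only (0.969), but had 7.16 and 5.96 at another annotated start, so all 16 were open at some start. Ctcf, whose product binds protocadherin promoters and enhancers, had a signal of 3.14 in replicate 1 and 3.36 in replicate 2. Rad21, a cohesin subunit, had 5.63 and 11.1. Smchd1, which keeps clustered protocadherin genes silent in several cell types, had 5.49 and 9.04, and Rest, a repressor of neuronal genes, had 2.02 and 2.13. Rad21 and Smchd1 were higher in replicate 2 by 0.98 and 0.72 on the log2 scale. For all genes open in both libraries this log2 difference had an SD of 0.42 around a median of 0.11.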

How the data were processed

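DNase-seq peaks of 2 libraries of 1 group were used. The deposited peak lists (a longer and a shorter one per library) give each peak's signal as the authors scaled it; per the file headers and labels the build is mm10, and replicates were not pooled. The deposited footprint lists carry a p-value label of 0.01 for every footprint, and the deposited cut-rate lists a false discovery rate (an adjusted p-value) per base, listed below 0.05. The aligner and callers, not given in the sources used here, and how CAST reads were mapped, which no source used here states, can change signal in repeated sequence and where CAST differs from the reference.

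Genes and starts came from GENCODE M21 and sequence from GRCm38.p6, which has the same chromosome lengths. Peaks were matched by an overlap of at least 1 bp, using Python 3.11.15 with NumPy 2.4.6, pandas 2.3.3 and Numba 0.67.0; figures used Matplotlib 3.10.9. Promoter calls were tested on simulated data. With 1 group no contrast exists, so no test was run and values are described as mean ± SD (n = 2) beside all genes. Alternatives were the shorter lists, half-widths of 250 and 1000 bp, any annotated start, the strongest 20000 peaks, each replicate alone, 50% reciprocal overlap and, added after the data were seen, equal numbers of peaks. Named were all members with a peak, the genes of the locus, all non-clustered protocadherins and Ctcf, Rad21, Smchd1 and Rest; marker genes, Wiz, Arap3 and the regions singled out were chosen after their values were seen. The members and lists were chosen with earlier results of these data known. No sequence is printed.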

Additional observations from a re-analysis of the deposited data

How the results depend on the processing

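The 4 members open in both replicates became 2 with the shorter peak lists (Pcdhac1 and Pcdhgc3) and 1 with the strongest 20000 peaks (Pcdhgc3), and 4 to 16 with each replicate alone; the same numbers held when the first exon was included. With each of these settings 42.2% to 59.7% of all genes were open. The count of members open in replicate 1 only, 12, became 3 with the shorter lists, 0 with the strongest 20000 peaks and 6 with equal numbers of peaks. With the shorter lists Pcdhgb6 and Pcdhga12 remained of the 12. Pcdhac2, open in both replicates otherwise, joined them because the shorter list of replicate 2 lacks its peak. These settings were chosen for this count after the data were seen. Shared regions of the span and flanks numbered 20, 13 with the shorter lists, 8 with the strongest 20000 peaks, and 22 to 45 with each replicate alone. Members with a CTCF core numbered 7, with 5 within 250 bp and 15 within 1000 bp. The share of all protein-coding genes is given for 500 bp only (19.2%), so the other widths have no background. The mean of 11.5 footprints at member starts moved by less than 1.5 times in every alternative run. Of 91 alternatives for single genes, single clusters and gene lists, 79 left the value within its spread or within 1.5 times and 12 did not. No paired analysis was possible because there is 1 group. Hox genes open in both replicates numbered 14, 8 with the shorter lists and 3 with the strongest 20000 peaks. A promoter without a peak is one where none was listed; the lowest signal of any listed peak was 0.0646 in replicate 1 and 0.0469 in replicate 2.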

Other observations

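A region in the first exon of Pcdhgc3, chr18:37806968-37807087, had a signal of 1.04 in replicate 1 and no peak in replicate 2, beside a promoter that both replicates showed. Near 3222401L13Rik, a transcript that starts between Taf7 and Pcdhga1, replicate 1 had peaks of 0.592 and 0.452 and replicate 2 none. In Pcdhb21 and Pcdhga7 replicate 1 had bases below a false discovery rate of 0.05 (lowest 0.0400 and 0.0365) without a peak. These were chosen after their values were seen.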
